A study of Homo sapiens with 32 samples.

Results

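N6-methyladenosine (m6A) peak lists of 786-O cells in which the histone methyltransferase gene SETD2 had been inactivated were compared with those of the parental cells for the second of the knockout clones, called clone 2 here. 786-O is a clear cell renal cell carcinoma line, and the knockout was made with CRISPR/Cas9, so clone 2 stands for 1 cell clone and its clonal history cannot be told apart from the loss of SETD2. The series holds 32 samples, of which 16 are m6A immunoprecipitations (MeRIP-seq) with 1 peak list each, and the 4 used for the comparison are clone 2 replicates 1 and 2 and wild-type (WT) replicates 1 and 2. The other 786-O lists come from a first knockout clone (clone 1) and from clone 1 carrying a SETD2 rescue construct, with 2 lists each, and RPTEC, an immortalised line of renal proximal tubule cells, has the same 4 groups. Nothing in the labels says whether replicates came from separate cultures, so the spread between them may be technical.

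The lists held 39670 and 28934 peaks in clone 2 and 31516 and 36401 in WT, so the larger and the smaller list of clone 2 lay on either side of both WT lists. Peaks of the 4 lists that overlapped by at least 1 bp were merged into 64493 regions on chromosomes 1 to 22, X and Y (hg38). A region was called gained if both clone 2 lists and neither WT list had a peak in it, and lost in the reverse case. There were 2604 gained regions (4.04% of all regions) and 2321 lost regions (3.6%). All 4 lists shared 11307 regions, 9414 were in 3 lists, and 8384 were called in 1 list of clone 2 and 1 list of WT. A further 16797 regions (26.0%) were in 1 clone 2 list only and 13666 (21.2%) in 1 WT list only. Of the 4 lists, only clone 2 replicate 2 shared more regions with its own replicate than with each list of the other line. Clone 2 replicate 1 had 45.1% of its regions in clone 2 replicate 2 and 51.8% and 56.3% in the WT lists, and clone 2 replicate 2 had 63.2% in clone 2 replicate 1 and 55.5% and 57.2% in the WT lists. WT replicate 1 had 65.3% of its regions in WT replicate 2 and 66.2% and 50.6% in the clone 2 lists, and WT replicate 2 had 56.6% in WT replicate 1 and 62.4% and 45.3% in the clone 2 lists. A peak list holds no read counts and no level of the transcript, so fewer m6A marks per transcript and less transcript cannot be told apart.

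m6A is laid down on nascent RNA by a complex with METTL3 as the catalytic subunit and METTL14 as its partner, it is removed by the demethylases FTO and ALKBH5, and it is bound by reader proteins such as YTHDC1 and the IGF2BP family. Peaks typically gather near stop codons, in long internal exons and at some transcript starts. SETD2 places the trimethyl mark on lysine 36 of histone H3 along transcribed gene bodies, a mark that METTL14 can bind, and SETD2 is among the genes most often mutated in clear cell renal cell carcinoma.

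The letters that the methyltransferase prefers were looked for where sequence was at hand, in the first 50 transcribed bases of RefSeq transcripts (GRCh38.p14). GGACT, on the transcribed strand only, occurred in 7 of 114 transcript starts under a gained region (6.14%), in 12 of 197 under a lost region (6.09%) and in 75 of 1595 under a region of all 4 lists (4.7%), beside 4.9% of all 35116 starts in the table. The shares under gained and lost regions were nearly equal. The examples that follow are the 4 protein-coding genes of each direction with the highest score rank. GGACT is in capitals, and the match shows the letters only, not a methylated base.
PTOV1 (gained, chr19:49851002-49851026, plus strand): cgtcttcccaGGACTcccccgcgcc
ITGB8 (gained, chr7:20330915-20330939, plus strand): ctcgggctctGGACTgcgggacgcc
MTRF1L (gained, chr6:153002680-153002704, minus strand): ccgcgatctcGGACTaaggatgcgg
WWC2 (gained, chr4:183099280-183099304, plus strand): cagacatggtGGACTgatccgcagc
ERI3 (lost, chr1:44355228-44355252, minus strand): ggtgtgttgtGGACTcgtggtgctg
FZR1 (lost, chr19:3522988-3523005, plus strand): ccatggaccaGGACTatg
AADAT (lost, chr4:170089925-170089949, minus strand): cgtgcggcgtGGACTttgccgggct
PREPL (lost, chr2:44359714-44359738, minus strand): cataaaccagGGACTttgatatcat

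SETD2 itself, the targeted gene, carried less peak-covered length in both clone 2 lists. The peak-covered length of a gene is the number of bases of its body, from annotated start to end, that lie under called peaks. For SETD2 (chromosome 3, 47016436 to 47164840) it was 3513 and 4867 bp in WT and 2866 and 2536 bp in clone 2. The groups did not overlap, but the difference of -0.58 ± 0.32 (SE) on the log2(bp + 200) scale did not pass the test (limma over all 8 lists of 786-O, adjusted p = 0.748). Clone 1 had 2602 and 4584 bp, which overlapped WT, and the rescue 4054 and 3482 bp. In RPTEC the gene had 3756 and 4520 bp in WT, 2322 and 2337 bp in SETD2KO clone 2, 2341 and 1601 bp in clone 1 and 4320 and 4295 bp in the rescue. Clone 2 of 786-O lost 3 SETD2 regions: one at 47016960 to 47017489, close to the 3′ end of the gene, and a pair at 47123035 to 47123682 and 47123987 to 47124296, which lay 28.0% and 27.4% of the way along it. METTL3, the catalytic m6A writer, had 1 peak of 326 bp in WT replicate 1 and no peak in the other 3 lists.

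Compared with lost regions, a smaller share of gained regions lay in protein-coding genes. Of the gained regions 68.5% overlapped a protein-coding gene, 10.6% a long non-coding RNA gene alone and 18.8% no annotated gene. The corresponding shares were 88.0%, 4.87% and 5.21% for lost regions, and 84.8%, 5.46% and 7.75% over all regions. The lists themselves showed the same order. Peaks whose midpoint lay in no gene made up 7.91% and 10.4% of the clone 2 lists and 6.08% and 6.07% of the WT lists, a difference of 3.08 percentage points that did not overlap between the groups and gave p = 0.333 in a two-sided exact permutation test, the smallest value that 2 against 2 samples allow. The difference was 1.83 points without clone 2 replicate 2 and 4.32 points without clone 2 replicate 1. The 4 other 786-O lists, rescue included, ranged from 8.12% to 8.87%, all above WT.

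Part of the gained regions outside genes came in dense stretches. When such regions at most 100 kb apart were joined, 83 of the 489 fell into 10 stretches of 6 or more regions, and 236 stood alone, whereas the 121 lost regions outside genes formed 1 such stretch. The limits that define a stretch were set after the lists had been examined, and the difference between clone 2 and WT is fixed by that choice. All 10 stretches had peaks in the 4 knockout lists of 786-O, 6 of them had none in its WT and rescue lists, and 2 of these 6 showed the same in RPTEC.

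The longest stretch, with 16 gained regions over 430 kb of chromosome 2 (16991714 to 17422022, between CYRIA and RAD51AP2), held 33 and 27 peaks in clone 2 and none in WT. Clone 1 had 28 and 27 peaks there, and the rescued clone 1 had none. In RPTEC the same stretch held 1 and 1 peak in WT, 21 and 18 in clone 2, 22 and 31 in clone 1, and 19 and 15 in the rescue, so the rescue was at the WT level in 786-O and not in RPTEC.

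A stretch of 397 kb on chromosome 8, between the matrix metalloproteinase gene MMP16 and the kinase gene RIPK2, had 19 and 16 peaks in clone 2 of 786-O, 18 and 15 in clone 1, and none in WT or rescue. RPTEC showed 16 and 14 peaks in clone 2, 11 and 9 in clone 1, and none in WT or rescue. All 8 knockout lists of the 2 cell lines therefore had peaks there and all 8 other lists had none. The stretch of 88.6 kb on chromosome 22 between POTEH and CCT8L2 behaved alike, with 11 and 13 peaks in clone 2 and 13 and 17 in clone 1 of 786-O, 11 and 5 in clone 2 and 12 and 13 in clone 1 of RPTEC, and none in the 8 WT and rescue lists.

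Other stretches were without any peak in RPTEC. Those on chromosome X between DIPK2B and KRABD4 (18 and 14 peaks in clone 2), on chromosome 6 between RNF144B and ID4 (9 and 12) and on chromosome 3 between CHL1 and CNTN6 (8 and 8) had no peak in WT, in the rescue or in any of the 8 RPTEC lists. In clone 1 of 786-O they held 12 and 12, 12 and 12, and 7 and 7 peaks. A stretch on chromosome 1 between FASLG and TNFSF18 differed from these, with 3 and 6 peaks in WT, 13 and 19 in clone 2, and 15 and 12 in the rescue. The remaining 3 had fewer peaks in WT or rescue than in the knockouts, but not 0 throughout. The stretch on chromosome 2 between FAM98A and CRIM1 had 0 and 2 peaks in WT, 10 and 14 in clone 2, 14 and 5 in clone 1 and none in the rescue. The one on chromosome 16 before SHCBP1 had 2 and 3 peaks in WT, 10 and 10 in clone 2 and none in the rescue. The one on chromosome 2 between NYAP2 and IRS1 had none in WT, 13 and 10 in clone 2, and 4 and 0 in the rescue. The lost stretch, on chromosome 9 between RXRA and COL5A1, had 7 and 8 peaks in WT, none in clone 2 or clone 1, 4 and 0 in the rescue, and none in RPTEC.

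**Figure D1:**
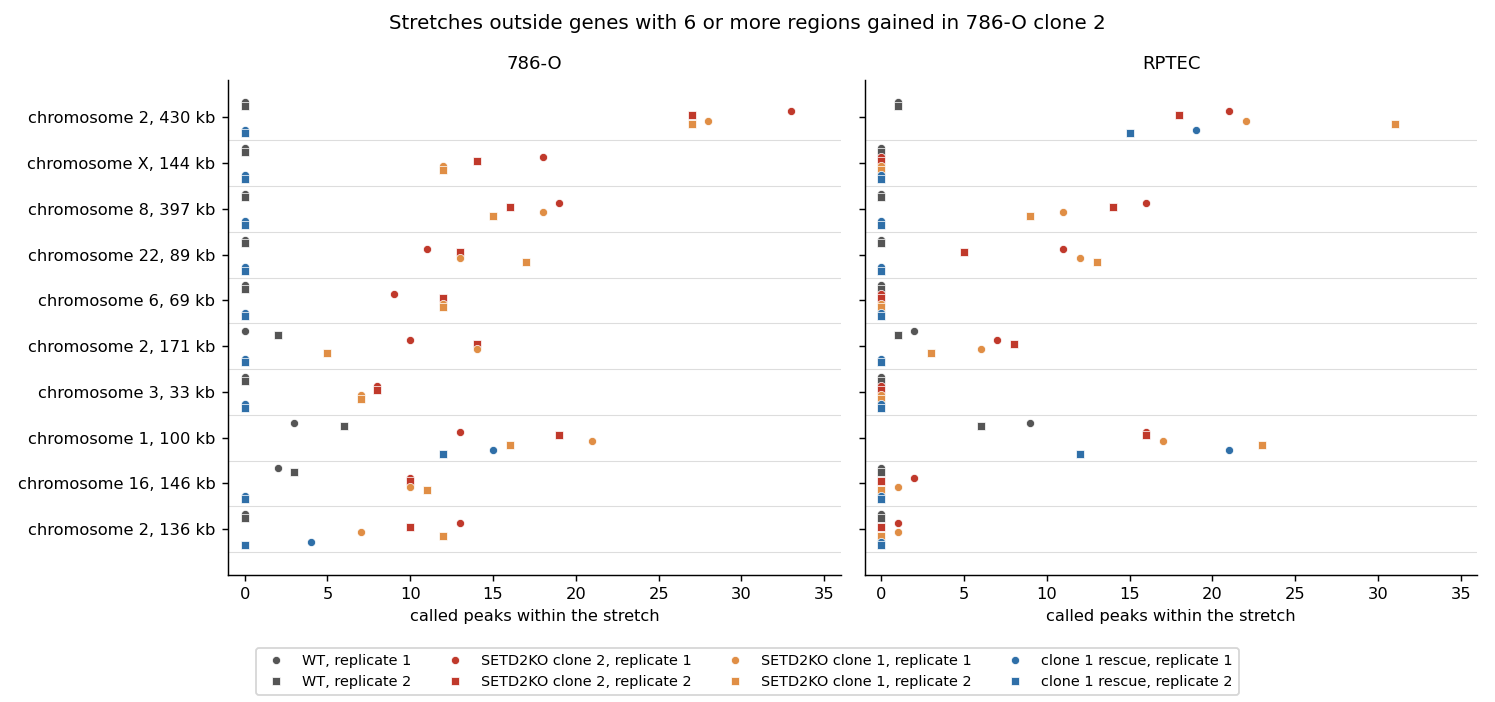
Called peaks (x axis, number) inside each of the 10 stretches outside genes with 6 or more gained regions (y axis, chromosome and length), for the 8 lists of 786-O (left) and the 8 lists of RPTEC (right). Colours mark WT, clone 2, clone 1 and rescue, and circles and squares mark replicates 1 and 2. On chromosomes 8 and 22 the knockout lists of both cell lines hold between 5 and 19 peaks while all WT and rescue lists are at 0.

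Within genes, the most gained regions in a gene without any lost region were 9 in XKR9, 8 in CNTN6, 7 in NLGN1 and 6 in each of 4 genes, of which ASTN2 is the first in alphabetical order. CNTN6 (chromosome 3, 1093024 to 1404217) encodes contactin 6, a neuronal cell adhesion molecule, and follows directly after the chromosome 3 stretch described above. No peak was called in it in either WT list, while clone 2 had 6335 and 7008 bp under 13 and 15 peaks. Its log2(bp + 200) difference of 5.10 ± 0.26 passed the test (limma, adjusted p = 0.0111). With WT at 0 bp the size of this value is set by the added constant, and it was 7.07 with 50 bp and 2.94 with 1000 bp. The WT and rescue lists were all at 0 bp, so these groups added no spread to the test. CNTN6 did not pass in limma under the replicate block (adjusted p = 0.0686), with the 4 lists alone (0.166), with lists of the same size (0.0614) or with the upper 50% of each list by score (0.0913).

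CNTN6 had 7130 and 7257 bp in clone 1 and 0 bp in both rescue lists, and no peak in any RPTEC list. NLGN1, which encodes the synaptic adhesion protein neuroligin 1, had 1286 and 2905 bp in WT and 5365 and 7892 bp in clone 2, and in this gene the rescue stayed high at 7731 and 4274 bp. ASTN2, a gene for a membrane protein of migrating neurons, had 3579 and 4111 bp in WT and 19173 and 9263 bp in clone 2, with 3255 and 1527 bp in the rescue. XKR9, a gene of the XK family of membrane proteins on chromosome 8, had 0 and 509 bp in WT and 5217 and 10511 bp in clone 2. Genes chosen by gained regions tend by that choice to have more length in clone 2, and none of NLGN1, ASTN2 and XKR9 passed the test (adjusted p = 0.246, 0.219 and 0.0742). All 4 bodies are long, and a gained region in them may belong to an overlapping transcript on either strand, since the lists give no strand.

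Protein-coding genes with a gained region numbered 1518, or 12.9% of the 11806 that had any region, and 1769 genes (15%) had a lost region. Most had only 1, namely 1278 and 1504 genes, and 242 genes had both kinds. A gene with a peak in both clone 2 lists and in neither WT list is the stricter case: there were 279 of these (2.36%), and 319 (2.7%) in the reverse direction. Of the 279 genes, 151 had a peak in both clone 1 lists and 41 in neither. In the rescue, 69 of them had a peak in both lists and 114 in neither. Of the 319 genes peaked in WT alone, 55 had a peak in both clone 1 lists and 156 in neither. In the rescue, 85 of these had a peak in both lists and 127 in neither. The same shares over all protein-coding genes are not given here, so these counts have no baseline.

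Tested over 15615 genes, peak-covered length was higher in clone 2 for 3 genes (0.0192%) and lower for 1 (0.0064%) at an adjusted p under 0.05. Without adjustment, 837 genes were higher and 681 lower at p under 0.05. The 3 higher genes were CNTN6, POU3F3 and DSP, all with no peak in WT. POU3F3, a transcription factor of neural and renal development, had 3518 and 3222 bp in clone 2 (4.16 ± 0.26, adjusted p = 0.0191). DSP, which encodes the desmosomal plaque protein desmoplakin, had 3466 and 3445 bp (4.19 ± 0.34, adjusted p = 0.0489). These calls depended on every list: with any 1 of the 4 lists left out, no gene passed in either direction. With WT at 0 bp the sizes for POU3F3 and DSP are set by the added constant as well, and with 1000 bp they were 2.13 and 2.16 and neither passed (limma, adjusted p = 0.0507 and 0.0613). Under the replicate block adjusted p was 0.0686 for POU3F3 and 0.174 for DSP, and DSP did not pass with lists of the same size (0.0614) or with no filter (0.0553) either.

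POU3F3 and DSP were peaked in the rescue too, which had 4366 and 3067 bp of POU3F3 and 3477 and 1779 bp of DSP, and RPTEC WT had peaks in both. The next in order, SORCS2 and ZNF626, did not pass (adjusted p = 0.0552 for each). SORCS2, a sorting receptor for neurotrophins, had 0 bp in both WT lists and 3178 and 3958 bp in clone 2. In RPTEC it had 6111 and 2022 bp in clone 2, 7555 and 4845 bp in clone 1, and 0 bp in all 4 WT and rescue lists. In 786-O the rescue still had 3999 and 1755 bp. ZNF626, a zinc finger gene, had 287 and 269 bp in WT and 2337 and 3955 bp in clone 2. The 786-O rescue had 3683 and 3180 bp of it.

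TMEM178B (chromosome 7, 141074064 to 141511296), a transmembrane protein gene, was the gene with less peak-covered length. WT had 5979 and 6426 bp under 11 and 13 peaks and clone 2 had none, a difference of -5.00 ± 0.37 (limma, adjusted p = 0.0347). With clone 2 at 0 bp this size is set by the added constant, and it was -6.97 with 50 bp and -2.85 with 1000 bp. The clone 2 and rescue lists were all at 0 bp, so these groups added no spread to the test. TMEM178B did not pass in limma under the replicate block (adjusted p = 0.174), with the 4 lists alone (0.166), with lists of the same size (0.0624) or with the upper 50% of each list by score (0.0913). Clone 1 had 789 and 991 bp and the rescue none, and all RPTEC lists carried between 8134 and 14155 bp. The genes BDKRB2, NES, ANPEP and SLITRK4 came next, with adjusted p = 0.0552 for each. They entered the test only through the 2 WT lists, so their p is no support for a difference.

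Ranking by p over 8 lists favours genes without spread in the other groups, so what these 4 genes share is a description. BDKRB2, the bradykinin B2 receptor, had 2231 and 2105 bp in WT, NES, the intermediate filament nestin, 1526 and 1835 bp, ANPEP, the brush-border aminopeptidase N, 1568 and 2084 bp, and SLITRK4, a neuronal membrane protein, 1576 and 1781 bp. None of the 4 genes had a peak in clone 2, clone 1 or the rescue of 786-O, whereas RPTEC WT had peaks in all of them. The RPTEC knockout lists had peaks in all of them too, with 1515 to 2147 bp of BDKRB2 and 1155 to 3481 bp of NES. ANPEP had 372 to 4956 bp and SLITRK4 1719 to 2732 bp in those lists.

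Counting genes without a gained region, lost regions were most numerous in FRMD4A (9) and NCAM1 (7), followed by 8 genes with 5 each. TMEM178B was among these 8, and AFF3 and AMZ1 are described as the first in alphabetical order. NCAM1, the neural cell adhesion molecule, had 8208 and 8326 bp in WT and 301 and 556 bp in clone 2. AFF3, a subunit of the super elongation complex, had 3487 and 8171 bp in WT and none in clone 2. FRMD4A, a scaffold protein of epithelial polarity, kept 10274 and 5970 bp of 17502 and 19893 bp, and AMZ1, a metalloprotease gene, kept 6116 and 5421 bp of 13902 and 13955 bp. The choice by lost regions favours more length in WT, so that order is a description. FRMD4A, NCAM1, AFF3 and AMZ1 did not pass the test, with adjusted p from 0.0677 for NCAM1 and AFF3 to 0.266 for FRMD4A. In the rescue AMZ1 had 14017 and 10903 bp, FRMD4A 8202 and 5676 bp, AFF3 2304 and 1554 bp, and NCAM1 no peak. In clone 1 AMZ1 had 7343 and 6370 bp and FRMD4A 10759 and 11180 bp. AFF3 had 0 and 379 bp there and NCAM1 0 and 310 bp.

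**Figure D2:**
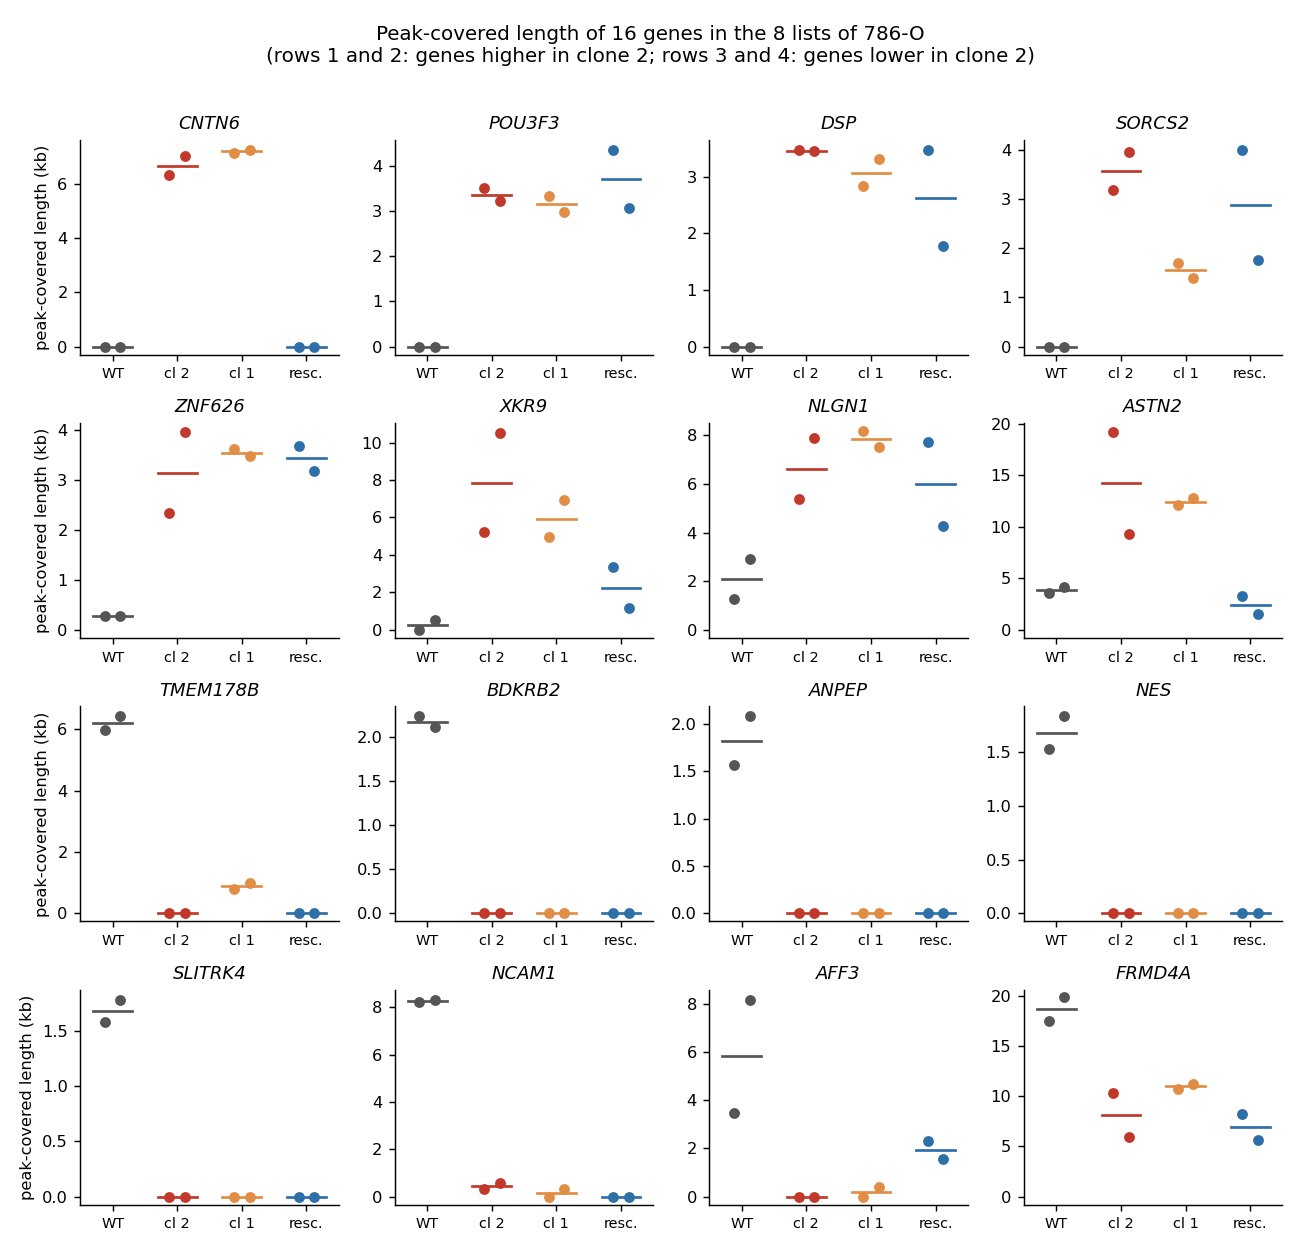
Peak-covered length (y axis, kb, a scale of its own in each panel) of 16 genes in WT, clone 2, clone 1 and clone 1 rescue (x axis) of 786-O, with points for the 2 lists and a line for their mean. CNTN6 has no peak in WT or rescue and between 6335 and 7257 bp in the 4 knockout lists, while each gene of the lower rows has more length in both WT lists than in both clone 2 lists.

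The 8 gained regions of highest score included 2 that were far from any WT peak, in SRSF11 and RNF168. The score of a peak is a whole number of unstated scale, so only its percentile within a list was used. The SRSF11 region (chromosome 1, 70250111 to 70250660, near the end of this splicing factor gene) reached a mean percentile of 99.99 in the clone 2 lists, and the nearest WT peak was 12025 bp away. RNF168, a ubiquitin ligase of the DNA damage response, had a region at the 99.3 percentile with the nearest WT peak 11575 bp away. Both clone 1 lists and both rescue lists called these regions as well. The other 6 were in BMS1, a ribosome biogenesis factor, LAMC1, a laminin chain, CANX, an endoplasmic reticulum chaperone, PPIA, a peptidyl-prolyl isomerase, NBPF26, and the overlapping pair TEX9 and MNS1. Their distance to the nearest WT peak ran from 921 to 3706 bp. PPIA and NBPF26 have close copies elsewhere in the genome, and how reads of such copies were assigned is not given in the sources used here.

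Lost regions of high score were in CDK11B, APLP2, NDUFA13, DRAP1, MXRA7, BRD3 and TUBB6, at mean percentiles of 98.7 to 99.9 in the WT lists. CDK11B encodes a cyclin-dependent kinase with a near-identical neighbour, APLP2 an amyloid precursor-like protein, NDUFA13 a subunit of respiratory complex I and BRD3 a reader of acetylated histones. The TUBB6 region, near the start of this beta-tubulin gene, was 15411 bp from the nearest clone 2 peak. The other 6 had a clone 2 peak at a distance of 173 to 2627 bp, and 3 of them (CDK11B, APLP2 and DRAP1) within 296 bp. Both clone 1 lists called the regions of CDK11B, DRAP1, MXRA7 and BRD3, 1 called that of TUBB6 and neither those of APLP2 and NDUFA13. Both rescue lists called the MXRA7 region, and 1 called those of CDK11B and TUBB6. Over all lost regions, 380 (16.4%) lay within 500 bp of a clone 2 peak, and 321 gained regions (12.3%) lay as close to a WT peak. Most regions were in genes that were peaked elsewhere in the other line, leaving 238 of 1785 gained (13.3%) and 267 of 2042 lost regions (13.1%) in protein-coding genes without any peak of it.

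Both kinds of region ranked below the regions shared by all lists. The median score percentile was 35.7 and 43.5 for gained peaks in clone 2 replicates 1 and 2, and 39.3 and 38.9 for lost peaks in WT replicates 1 and 2, against 65.5 to 67.8 for peaks in regions of all 4 lists. Gained peaks were 402 and 366 bp wide at the median and lost peaks 347 and 334 bp. Peaks in shared regions were wider, from 472 to 579 bp. Between the lists as a whole, median width was 432 and 388 bp in clone 2 and 400 and 371 bp in WT, which overlapped (exact permutation test, two-sided, p = 0.667), and the number of peaks did not separate the groups either (p = 1).

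**Figure D3:**
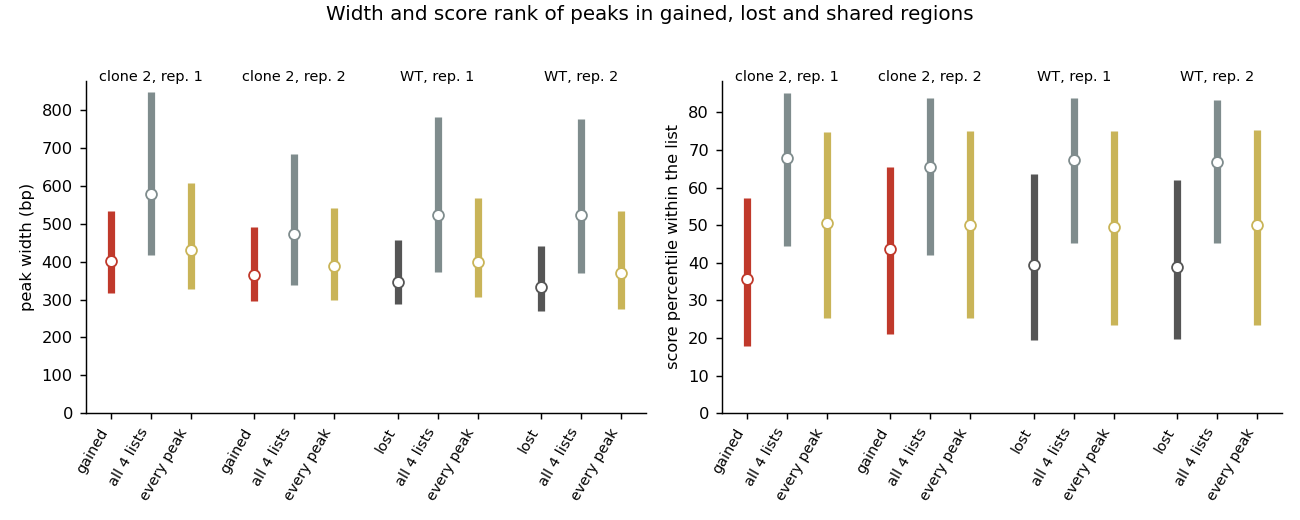
Peak width in bp (left) and score percentile within the list (right) for peaks of gained or lost regions, of regions called in all 4 lists and of every peak, in each clone 2 and WT list (x axis). Circles are medians and bars run from the 25th to the 75th percentile. Gained and lost peaks are narrower and of lower rank than peaks of regions called in all 4 lists, with median percentiles of 35.7 to 43.5 against 65.5 to 67.8.

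Along genes, most regions of every class were internal. Among the regions in exactly 1 protein-coding gene of known strand (1396 gained, 1606 lost), 75.7% of gained and 64.6% of lost regions had their midpoint outside the first and last 10% of the gene, beside 69.9% of all regions. The first 10% of the gene held 9.96% of gained and 15.3% of lost regions, and the last 10% held 14.3% and 20.05%, where all regions had 13.5% and 16.6%. Regions called in all 4 lists had 26.3% in the last 10%. The median length of the gene holding the region was 80.8 kb for gained, 75.2 kb for lost and 52.7 kb for regions of all 4 lists. The annotation used gives gene bodies and no exons, so exonic, intronic and untranslated parts were not separated.

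The chromosomes did not share gained and lost regions evenly. Chromosome 16 had 173 gained and 45 lost regions (5.51% and 1.43% of its regions), chromosome 9 had 199 and 76, chromosome 22 had 103 and 39, and chromosome 8 had 153 and 74. Lost regions were in excess on chromosome 11, with 68 gained and 134 lost, and on chromosomes 10 (86 and 136) and 7 (116 and 185). Chromosome 18 had the highest share of lost regions at 6.03%.

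The share of a list's peaks on each of 24 chromosomes was tested in the same way. It was higher in clone 2 on chromosomes 8, 9, 16 and 22 (4 of 24, 16.7%) and lower on chromosomes 1, 7, 10, 11 and 12 (5 of 24, 20.8%). Chromosome 16 held 4.58% and 4.37% of the WT peaks and 5.75% and 5.33% of the clone 2 peaks, 0.31 ± 0.06 on the log2 scale (limma, adjusted p = 0.00641). Chromosome 9 held 5.05% and 5.01% in WT and 6.16% and 5.94% in clone 2 (0.27 ± 0.04, adjusted p = 0.00641), and chromosome 8 rose from 3.63% and 3.75% to 4.23% and 4.47% (0.24 ± 0.04, adjusted p = 0.00641).

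In the rescue, chromosomes 8 and 9 were at 3.46% and 3.58% and at 4.68% and 4.49%, below WT, while chromosome 16 stayed at 5.47% and 5.51%. Clone 1 was close to clone 2 on all 3, with 4.42% and 4.34%, 6.23% and 6.004%, and 5.87% and 5.41%. The lists hold no copy number, and its part in these shares was not tested. Without WT replicate 1 only chromosomes 9 and 16 passed, and without WT replicate 2 only chromosomes 8 and 9, and 18 chromosomes passed without clone 2 replicate 1. With the 4 lists alone none passed (7 at an unadjusted p under 0.05).

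**Figure D4:**
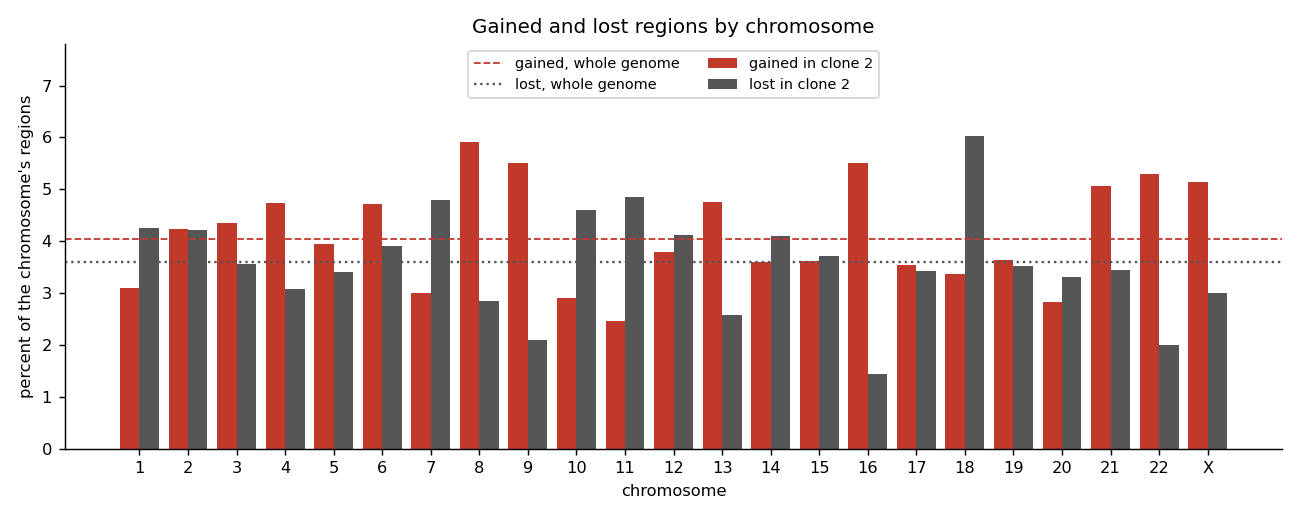
Gained (red) and lost (grey) regions as a percent of all merged regions of each chromosome (y axis), for chromosomes 1 to 22 and X (x axis), with dashed and dotted lines at the genome-wide 4.04% and 3.6%. Gained bars exceed lost bars most on chromosomes 16, 22, 9 and 8, and lost bars exceed gained bars most on chromosomes 18 and 11.

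Zinc finger genes, taken as all protein-coding genes with a ZNF symbol, had 430 members with a region. Of these, 55 (12.8%) had a gained and 44 (10.2%) a lost region, near the 12.9% and below the 15% over all protein-coding genes. Of the zinc finger genes 10 had a peak in both clone 2 lists and no WT list and 3 the reverse, where the shares over all protein-coding genes were 2.36% and 2.7%. The window of chromosome 19 from 20 to 30 Mb held 25 gained and 3 lost among 138 regions, a gained share of 18.1%. Over all regions that share was 4.04%. It was the highest among the windows of 10 Mb counted, and chromosome 12 from 80 to 90 Mb had 17.6%. ZNF626 and ZNF43 lie in the chromosome 19 window. ZNF43 had 0 bp in WT, 1207 and 1287 bp in clone 2 and 1495 and 633 bp in the rescue. ZNF665, also on chromosome 19, had 0 bp in WT, 1233 and 1305 bp in clone 2 and 718 and 1131 bp in the rescue. Both had adjusted p = 0.0677.

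Among the m6A machinery, 1 of 9 writer genes with a region had a gained one (METTL14) and 1 a lost one (VIRMA), and of 12 readers and erasers 2 had gained (FTO and IGF2BP2) and 3 lost regions (YTHDC1, IGF2BP3 and ALKBH5), where 12.9% and 15% of all protein-coding genes with a region had one. No writer, reader or eraser passed the gene test. FTO had the most of them, with 3 gained regions and 1795 and 1711 bp in WT against 4589 and 3775 bp in clone 2, groups that did not overlap. Its log2 difference was 1.16 with adjusted p = 0.256. FTO lies on chromosome 16, whose share of peaks was higher in clone 2. IGF2BP3 had 3767 and 3761 bp in WT and 2761 and 1252 bp in clone 2. YTHDC1 had 1916 and 2557 bp in WT and 1610 and 1451 bp in clone 2.

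A list of 16 genes held writers and erasers of H3K36 methylation and the associated factors PSIP1, IWS1 and SUPT6H, and all had a region. Of the 16 genes, 3 had a gained and 5 a lost region, beside 12.9% and 15% of all protein-coding genes. KDM4A and KDM4B, lysine demethylases, had both kinds, KDM2A a gained one, and SMYD2, SETD2 and KDM2B lost ones. SMYD2, a lysine methyltransferase, had 353 and 856 bp in WT, none in clone 2 or clone 1, and 438 and 362 bp in the rescue (adjusted p = 0.139). None of the 16 passed, 11 of them were lower in value, and the list's median log2 difference was -0.11 beside 0.00 over all genes tested.

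A list of 16 genes was taken from those that the study drew or named, and it does not hold all of them. It includes SETD2 as the target and METTL3 as the writer, and the study picked the rest with these samples in view, so they give no independent evidence. Of the 16, 6 had a gained region (37.5%, beside 12.9% of all protein-coding genes) and 3 a lost region (18.75%, beside 15%). HM13 had both kinds, and none of the 16 passed the test. SLC29A3, a lysosomal nucleoside transporter, had 796 and 1280 bp in WT and 3594 and 1778 bp in clone 2, with 2 gained regions at chromosome 10, 71323586 to 71324012 and 71335074 to 71335875, and adjusted p = 0.623. SERPINH1, the collagen chaperone HSP47, had 577 and 582 bp in WT and 2727 and 1049 bp in clone 2 (adjusted p = 0.494), with gained regions at chromosome 11, 75566137 to 75566485 and 75568453 to 75568827. In both genes the groups did not overlap.

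HM13, the signal peptide peptidase, had 3640 and 2695 bp in WT and 2757 and 2989 bp in clone 2, and CHPF, a chondroitin polymerising factor, 1803 and 2129 bp and 1506 and 2026 bp. The groups of both overlapped. LY96, a co-receptor of Toll-like receptor 4, had 0 bp in both WT lists and 905 and 1154 bp in clone 2, but no gained region, since its 3 peaks in each clone 2 list lay at different positions. EHHADH, of peroxisomal fatty acid oxidation, had 587 and 646 bp in WT and 2509 and 1623 bp in clone 2 (adjusted p = 0.289). The study's primers for m6A immunoprecipitation followed by PCR in the first 4 of these genes are shown, since they mark what it amplified there.
SLC29A3 forward: gcacaagtaagagcaagaggt
SLC29A3 reverse: gcagccctgtcaactaaacaa
SERPINH1 forward: ccgagcaatctgggggtg
SERPINH1 reverse: atttgtaggctctggctcgg
HM13 forward: gagcccagtcaccaaggaga
HM13 reverse: ttggactctcccaatccatgc
CHPF forward: cagcctatgacctgttgtggac
CHPF reverse: cagatgagctagcggaggca

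In the metabolic and hypoxia lists, the shares of genes with a gained region ran from 8% to 15.8% and those with a lost region from 10.5% to 15.4%, near the 12.9% and 15% over all protein-coding genes with a region. Fatty acid oxidation genes had 2 gained (EHHADH and ETFB) and 3 lost (ACOX3, ETFA and ACADVL) among 25 with a region, the list of the TCA cycle and related genes 3 (citrate synthase CS, the cytosolic aconitase ACO1 and the iron-sulfur cluster assembly factor ISCA1) and 2 (DLST and IDH2) among 19, and cholesterol synthesis and uptake 3 and 4 among 26. DLST, the E2 subunit of the 2-oxoglutarate dehydrogenase complex, had 274 and 267 bp in WT, none in either clone and 295 and 294 bp in the rescue. Hypoxia-inducible targets had 3 gained (ARNT, EGLN1 and KDM3A) and 3 lost (EPAS1, VEGFA and EGLN3) among 26. EGLN3, an oxygen-sensing prolyl hydroxylase, had 2118 and 1647 bp in WT and 547 and 0 bp in clone 2, with adjusted p = 0.345. No gene of these lists passed the gene test. Clear cell carcinoma driver genes, a separate list, had 4 gained and 3 lost among 17 (23.5% and 17.6%), and none passed.

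Matrix and epithelial-mesenchymal transition genes had 6 gained and 7 lost among 31 with a region (19.4% and 22.6%, beside 12.9% and 15% of all protein-coding genes). Of the 30 tested, 22 were lower in value in clone 2 and none passed the test, and their median log2 difference was -0.27 beside 0.00 over all genes tested. COL5A1, a fibrillar collagen chain, had 1095 and 1132 bp in WT and no peak in the 6 other 786-O lists, so that it entered the test only through WT, and it follows the lost stretch of chromosome 9. SNAI2, a repressor of epithelial genes, had 405 and 1039 bp in WT and none in clone 2. COL6A1, a collagen VI chain, was higher in value, with 1171 and 478 bp in WT and 5420 and 1953 bp in clone 2. Of 27 immediate early genes with a region, 3 had a gained region (KLF4, FOS and CCN2, 11.1%) and 2 a lost region (NR4A1 and SOCS3, 7.41%), with 14 higher and 14 lower in value among the 28 tested and none past the test. KLF4, a zinc finger transcription factor, had 2 gained regions, with 0 bp in WT and rescue, 1702 and 1509 bp in clone 2 and 1260 and 639 bp in clone 1 (adjusted p = 0.0677).

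Of 10 renal tubule and carcinoma markers, 9 had a region. Of these, 3 had a gained region (PAX8, MET and KRT8) and 3 a lost region (EPAS1, PAX8 and PAX2). Each share was 33.3%, beside 12.9% and 15% of all protein-coding genes with a region. In value, 4 were higher and 5 lower in clone 2, and none passed the test. PAX8, a renal lineage factor, had 6834 and 8636 bp in WT and 9444 and 5834 bp in clone 2. PAX2, a related factor, had 3 lost regions and 3974 and 5994 bp in WT against 6722 and 2002 bp in clone 2. None of the 5 blood and 4 endothelial markers had a peak in the 4 lists.

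A larger share of gained than of lost regions was called in clone 1, which shares the loss of SETD2 but was not used to define them. Of the gained regions 46.5% (95% Wilson interval 44.6 to 48.5) and 49.7% (47.8 to 51.6) had a peak in clone 1 replicates 1 and 2, of the lost regions 30.5% (28.6 to 32.4) and 31.8% (30.0 to 33.8), and of all regions 43.0% and 44.3%. These intervals cover counting error only. Both clone 1 lists called 832 gained regions (32.0%) and 338 lost regions (14.6%), and 930 gained regions (35.7%) were in neither.

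In the rescue, gained regions were at 29.6% and 29.4%, below all regions at 40.3% and 30.8%, and lost regions were at 38.9% and 25.03%. These rescue lists held 32016 and 25710 peaks. In RPTEC, gained regions were called in 24.5% and 23.8% of cases in clone 2 and in 23.5% and 20.8% in WT, and lost regions in 26.2% and 15.6% in clone 2 and 31.9% and 23.4% in WT. All regions were at 31.1% and 21.2% in RPTEC clone 2 and at 33.01% and 25.7% in RPTEC WT. Regions are not independent replicates and the lists differ in size, so no test was made on these shares.

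**Figure D5:**
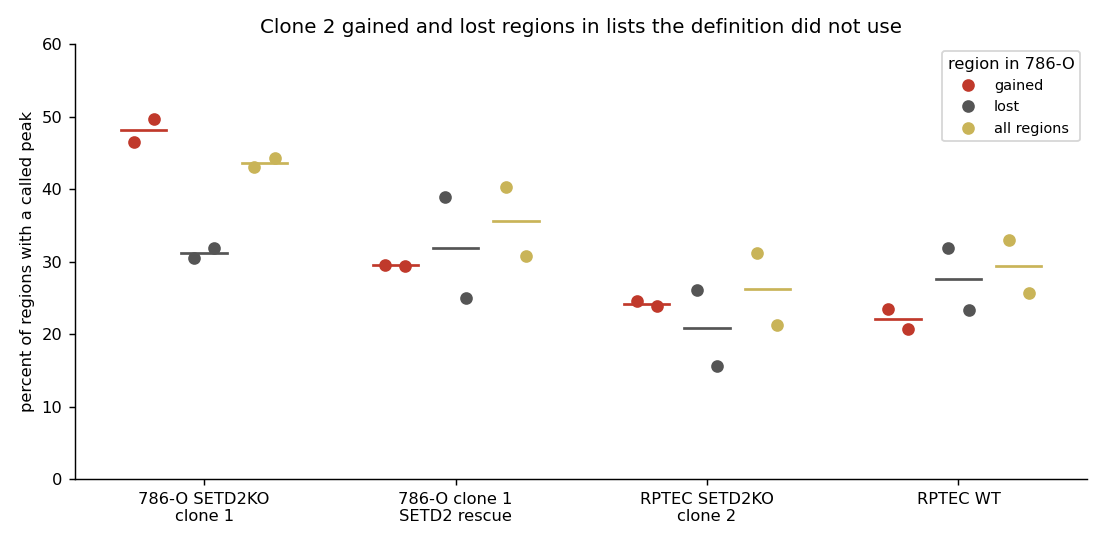
Percent of 786-O clone 2 gained (red), lost (grey) and all merged regions (yellow) with a called peak (y axis) in lists that did not define them (x axis), as 2 points per group with a line at their mean. Gained regions are at 46.5% and 49.7% in clone 1, above lost regions at 30.5% and 31.8%, and at 29.4% to 29.6% in the rescue.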

How the data were processed

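The 4 lists came from anti-m6A immunoprecipitations of RNA. Per the labels and the study's methods, the authors aligned reads with STAR to hg38 and called peaks with MACS2 for each library, and deposited the peak positions with a score of unstated scale per peak. The score was used only as a percentile within a list, and the other value columns of the 786-O lists held 0. The methods state a minimum number of reads per sample, while the totals of each library are not given in the sources used here, so the numbers of peaks per list are given in their place. Input libraries were not analysed here.

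Peaks on chromosomes 1 to 22, X and Y overlapping by 1 bp or more were merged. Gene bodies and transcript starts came from RefSeq on GRCh38.p14, which shares its coordinates with hg38. Peak-covered length per gene was tested as log2(bp + 200) with limma (lmFit and eBayes with trend) over the 8 lists of 786-O in 4 groups, for genes covered in 2 or more lists, at a Benjamini-Hochberg adjusted p under 0.05. The pseudocount understates changes of genes with little covered length. The percent of peaks per chromosome was tested on the log2 scale without trend. Measures of whole lists were set against each other in a two-sided exact permutation test. Named were the genes with the 5 smallest adjusted p and the 4 largest numbers of regions in each direction, the 8 regions of highest score, the study's own genes and called members of the lists, and 1 of these regions is not reported here. Other genes, and the stretches outside genes, were chosen after their values were seen. Members and lists were chosen with earlier results of these data known. On simulated data, 46 and 48 of 50 genes changed by 6 log2 units and 24 and 28 of 50 changed by 3 were recovered, with 3 false calls among 15615 genes. Alternatives changed the merging, the score limit, list size, pseudocount, filter, trend, replicate block and libraries used. The fits ran in R 4.3.3 with limma 3.58.1, and merging, counts and plots in Python 3.11.15 with pandas 2.3.3, NumPy 2.4.6, Matplotlib 3.10.9 and SciPy 1.17.1.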

Additional observations from a re-analysis of the deposited data

How the results depend on the processing

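The numbers of gained and lost regions were 1208 and 1296 with the upper 50% of each list by score and 4905 and 4519 as 200-bp bins, and 4207 to 12988 and 3683 to 10691 with 1 list left out, where fewer lists must agree. They stayed within 1.5 times under the other merging rules and with lists of the same size. The log2 difference in the number of peaks was -0.00206 with the upper 50% and ran from -0.23 to 0.23 with 1 list left out. Peak width and peaks in no gene kept their direction under every alternative run for them.

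Genes with more and less peak-covered length numbered 0 and 0 with the 4 lists alone (1530 at an unadjusted p under 0.05), with the upper 50% (1050), under the replicate block (1484) and with any 1 list left out (0 to 0 in each direction, 1041 to 2182 unadjusted). They were 1 and 0 with lists of the same size, 1 and 3 with a pseudocount of 1000 bp, 86 and 114 with 50 bp, 204 and 214 for log2(number of peaks + 0.5), and 32 and 40 without the trend, a setting chosen after seeing the data. The cause was not tested. The number of chromosomes called, 9 with all 8 lists, was 0 with the 4 lists alone and 4 with lists of the same size, and ran from 2 to 18 with 1 list left out.

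Deviations of samples with the same replicate number had r from -0.06 to 0.19 between groups, over 15615 genes. The highest was for clone 2 with the clone 1 rescue (0.19). These values cannot tell whether same-numbered samples were handled together. The replicate block left the number of peaks at 0.00, peak width at 0.09 and peaks in no gene at 3.08 percentage points, with exact sign-flip p of 1, 0.5 and 0.5, where 0.5 is the smallest possible, and called 10 chromosomes.

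With the upper 50%, the share of gained regions called was 44.3% in clone 1 and 30.1% in the rescue, and that of lost regions in clone 1 was 33.2%. With lists of the same size, lost regions in clone 1 were at 33.3% and gained regions in the rescue at 35.8%. With all peaks, the mean for gained regions was 48.1% in clone 1 and 29.5% in the rescue. Lost regions had 31.2% in clone 1, and all regions 43.7% in clone 1 and 35.6% in the rescue. The shares of all regions under the alternatives are not given here, so those values have no baseline. The log2 difference was 0.00 for CHPF by peak number. It changed sign for DECR1 (-0.064) and ECI1 (-0.62) with the upper 50%, DNMT3B (0.17 with the upper 50%), and HM13 (0.15 with lists of the same size, 0.10 by peak number). With 1 list left out it ran from -0.34 to 0.044 for CHPF, from -0.13 to 0.57 for ECI1, from -0.32 to 0.085 for HM13, from -1.47 to 1.44 for DNMT3B, from -0.65 to 0.27 for TNFRSF12A and from -0.9998 to 0.48 for ACADVL, none of which was called. The lists hold no read totals, so the depth behind the absence of a peak in a list cannot be given.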
